A study of Homo sapiens with 10 samples.

Results

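Genes of the actin cytoskeleton, of focal adhesions and of the YAP response were described in lung cancer cell lines whose mutant p53 had been knocked down. The group consists of 42 genes listed by name and matched by Ensembl ID. All 42 were found among the 57736 genes of the deposited count table, and all 42 were among the 17978 genes that passed a filter on low counts and were tested. By role they comprised 7 actin cross-linkers and scaffolds, 9 focal adhesion proteins, 6 myosin and tropomyosin genes, 4 genes of the calponin family, 9 genes of actin filament assembly and turnover, the 3 genes of ezrin, radixin and moesin, and 4 YAP-responsive genes.

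RNA was sequenced from 10 libraries of 3 lines derived from human lung cancers. NCI-H2087 cells, which carry p53 V157F, received an siRNA against p53 (2 libraries) or a control siRNA (2 libraries). NCI-H441 cells, which carry p53 R158L, were treated in the same way, again with 2 libraries of p53 siRNA and 2 of control siRNA, and NCI-H2110 cells, which carry p53 R158P, gave 1 library of each. All groups thus carry a mutant p53, each mutation was represented by 1 line, and mutation and line cannot be told apart. The sample titles speak of a knockout where the protocol names an siRNA. The labels give no time after transfection and do not say whether replicates were separate cultures, so the p-values measure the spread between these libraries, which may be technical.

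Actin filaments are nucleated as branches by the Arp2/3 complex, lengthened with profilin, severed by cofilin, cross-linked by filamins and alpha-actinins and pulled on by myosin II. They are anchored at focal adhesions, where talin, vinculin, paxillin, zyxin and tensins connect them to integrins. Tension on this system is a known input to YAP and TAZ, cofactors that act with TEAD proteins on genes such as CCN1, CCN2 and ANKRD1, while the pool of free actin controls MRTF, the cofactor of serum response factor (SRF). Many cytoskeletal genes are SRF targets, with a CArG box in their promoters.

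Library totals lay between 18336672 and 25810934 counts. Levels are given in CPM, counts scaled to the size of the library after TMM normalization. Epithelial keratins and cadherin were present in every library, with summed levels of 5 markers between 2367 and 8914 CPM, and all 5 markers were found; in NCI-H2087 the sum was 8822 to 8914 CPM with p53 siRNA and 3694 to 4035 CPM with control siRNA. The alveolar and lung lineage list of 6 markers was lower in the p53 siRNA libraries of NCI-H2087, at 224 to 405 CPM, against 1061 to 1156 CPM in its control libraries. Of 8 smooth muscle markers, CNN1 was at 0 in every library, and the summed level in NCI-H2087 was 31.8 to 39.4 CPM with p53 siRNA and 12.8 to 13.8 CPM with control siRNA, most of it SMTN. Of 8 fibroblast markers, PDGFRA was at 0 in every library, and the sum in NCI-H2087 was 12.4 to 16.4 CPM with p53 siRNA and 14.2 to 17.0 CPM with control siRNA. The 4 immune markers summed to 257 to 363 CPM with p53 siRNA and 113 to 134 CPM with control siRNA in NCI-H2087, nearly all of it CD68, while PTPRC was at 0 in both p53 siRNA libraries and at 0.0516 and 0.0377 CPM in the control libraries. The 2 endothelial markers found of 3 listed summed to at most 1.56 CPM. The part of these marker levels in the results that follow was not tested. In bulk RNA, fewer cells of a kind and less RNA per cell cannot be told apart.

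In NCI-H2087, genes from 5 of the 7 roles rose after p53 knockdown, the most among the genes of filament assembly and turnover, where 7 of 9 rose. No gene of the calponin family and no YAP-responsive member passed the test. In edgeR's quasi-likelihood test, with Benjamini-Hochberg adjustment over all genes tested and a threshold of 0.05 on the adjusted p, 19 of the 42 genes rose, against 4.98% of all genes tested that rose. No gene of the group fell, against 3.69% of all genes tested. At an unadjusted p under 0.05, 1 gene, AMOTL2, was lower, against 2343 of the 17978 genes tested. DESeq2 and limma-voom likewise called 0 lower. The median log2 change of the group was 0.68, against -0.03 for all genes tested, and its changes ran from -0.71 to 2.48. Every p53 siRNA library was above every control library for 32 of the 42 genes, against 25.4% of all genes tested. Scaling by library totals in place of TMM lowered the median over all genes to -0.21. The group's median was then 0.50, and 15 genes rose. Its positive changes numbered 32 instead of 35, against 6052 instead of 8157 over all genes tested. The direction of TLN1, VCL and RDX, whose changes did not pass the test, turned negative under that scaling. Over all genes tested, the split was 638 higher and 1285 lower under it, and 896 higher and 664 lower with TMM.

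Libraries of the same replicate number deviated together within each line, so a fit with the replicate number as a block was also made. In NCI-H2087 it called 31 of the 42 genes, 28 higher and 3 lower, against 25.4% of all genes tested. The 3 lower genes were AMOTL2, MYL9 and TPM2. Leaving out 1 library changed the count in the unblocked test to 18 without p53 siRNA replicate 1, 11 without p53 siRNA replicate 2, 6 without control siRNA replicate 1 and 3 without control siRNA replicate 2. TNS4, MICAL2 and ARPC1A were called under each of the 12 alternatives run for NCI-H2087. The other 16 calls were each lost under at least 1. The share of all genes called without a library is not given here, so the counts without a library are not set against it.

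**Figure D1:**
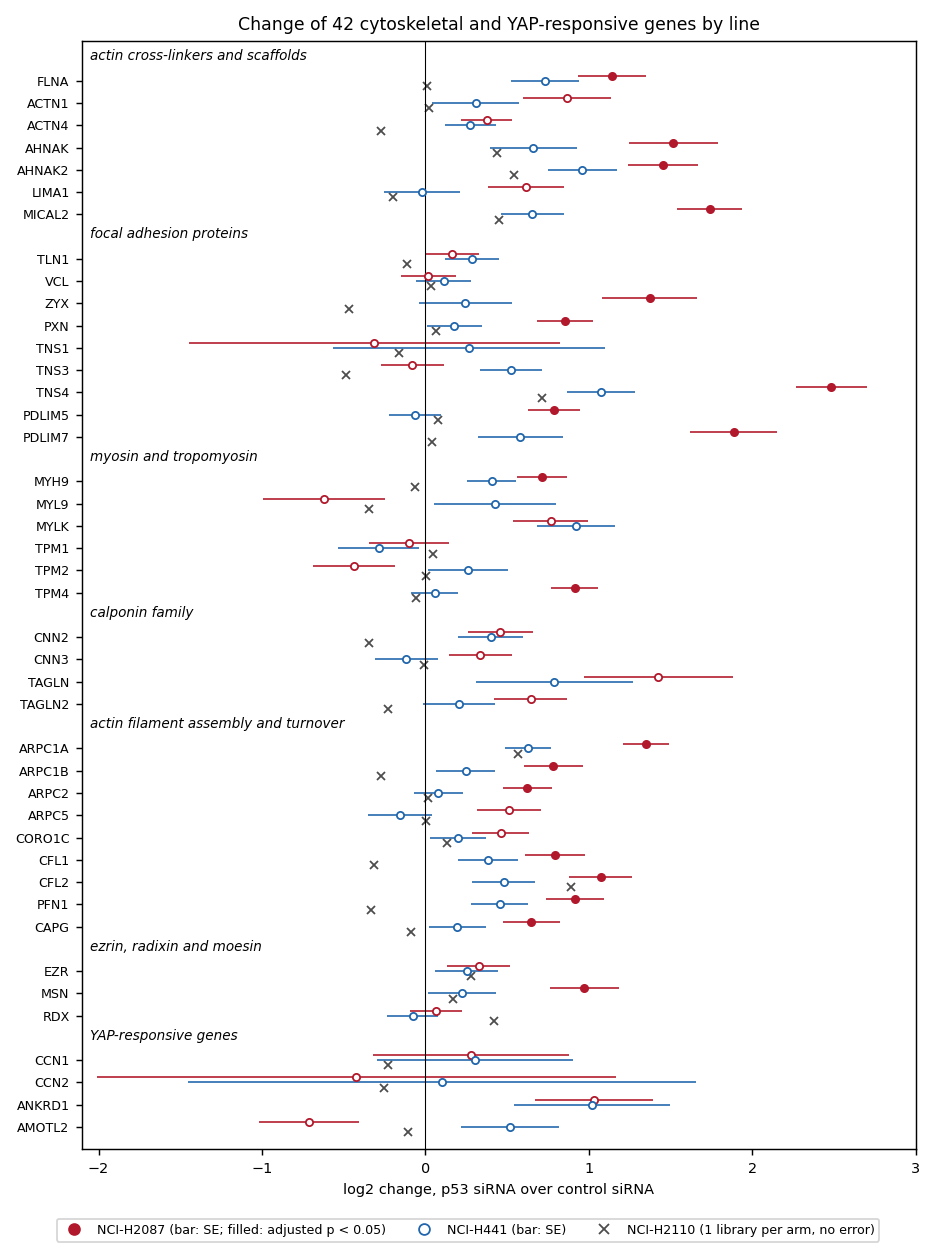
Change of each of the 42 genes with p53 siRNA, on the log2 scale and grouped by role, as points with standard errors for NCI-H2087 and NCI-H441 and as crosses without error for NCI-H2110; filled points had an adjusted p under 0.05 (edgeR). The 19 filled points all belong to NCI-H2087 and lie between 0.62 and 2.48, none of them in the calponin family or among the YAP-responsive genes.

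Of the 7 cross-linkers and scaffolds, 4 rose in NCI-H2087 (4.98% of all genes tested rose), and the median log2 change of the 7 was 1.14. MICAL2, a monooxygenase that oxidises and disassembles actin filaments, had 112 and 136 CPM in the p53 siRNA libraries of NCI-H2087, against 34.8 and 39.4 CPM in the control libraries. The change was 1.74 ± 0.20 (log2, SE; edgeR adjusted p = 0.0018). The giant scaffold protein AHNAK was at 1274 and 1005 CPM with p53 siRNA and at 385 and 412 CPM with control siRNA, a change of 1.52 ± 0.27 (edgeR adjusted p = 0.0102). Its relative AHNAK2 was at 215 and 162 CPM with p53 siRNA and at 74.4 and 63.3 CPM with control siRNA, a change of 1.45 ± 0.21 (edgeR adjusted p = 0.0043). In all 3 genes the lowest p53 siRNA library was above the highest control library, as in 25.4% of all genes tested. The 3 were called on these same libraries, so this is no further support. FLNA, the filamin that joins actin filaments into orthogonal networks, had 352 and 524 CPM with p53 siRNA against 186 and 211 CPM with control siRNA, a change of 1.14 ± 0.21 (edgeR adjusted p = 0.0116). The remaining 3 genes did not pass the unblocked test and did with the block, at positive changes. They were the alpha-actinins ACTN1 (0.86 ± 0.27, edgeR adjusted p = 0.0775) and ACTN4 (0.37 ± 0.16, edgeR adjusted p = 0.169), and LIMA1, which bundles filaments and slows their turnover (0.61 ± 0.23, edgeR adjusted p = 0.135). The call of AHNAK2 was lost without control siRNA replicate 2 (edgeR adjusted p = 0.0692), that of AHNAK without either control library (up to 0.0914), and that of FLNA without either control library or p53 siRNA replicate 2 (up to 0.0997).

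Of the 9 focal adhesion proteins, 5 rose in NCI-H2087, and the others showed no change that passed the test. TNS4, a short tensin that lacks the actin-binding region of its relatives and binds integrin tails, had 91.6 and 67.6 CPM in the p53 siRNA libraries against 15.7 and 12.8 CPM in the control libraries. Its change of 2.48 ± 0.22 (edgeR adjusted p = 0.000577) was the largest of the 42 genes in that line. The other tensins did not pass the test. TNS3 was at 74.5 and 66.1 CPM with p53 siRNA and at 69.6 and 79.2 CPM with control siRNA, and TNS1 was below 0.5 CPM in all libraries of NCI-H2087 and NCI-H441. The LIM proteins PDLIM7 and PDLIM5, which bind actinin and tropomyosin, both rose. PDLIM7 had 51.0 and 86.7 CPM with p53 siRNA against 18.7 and 18.5 CPM with control siRNA, a change of 1.88 ± 0.27 (edgeR adjusted p = 0.0038). PDLIM5 had 173 and 208 CPM with p53 siRNA against 109 and 111 CPM with control siRNA, a change of 0.79 ± 0.16 (edgeR adjusted p = 0.0174). Zyxin (ZYX), which is recruited to adhesions and filaments under tension, had 229 and 396 CPM with p53 siRNA against 96.1 and 145 CPM with control siRNA, a change of 1.37 ± 0.29 (edgeR adjusted p = 0.0201). Paxillin (PXN), an adaptor of early adhesions, had 414 and 472 CPM with p53 siRNA against 253 and 238 CPM with control siRNA, a change of 0.85 ± 0.17 (edgeR adjusted p = 0.0162). The linkers between integrins and actin did not pass. Talin (TLN1) was at 90.3 and 103 CPM with p53 siRNA and 85.0 and 87.8 CPM with control siRNA, and vinculin (VCL) was at 326 and 354 CPM with p53 siRNA and 289.7 and 382 CPM with control siRNA. The call of PDLIM7 was lost without control siRNA replicate 2 (edgeR adjusted p = 0.0600), and those of ZYX (up to 0.143), PXN (up to 0.153) and PDLIM5 (up to 0.142) were lost without either control library or p53 siRNA replicate 2.

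Among the 9 genes of filament assembly and turnover, 7 rose in NCI-H2087, and the 2 that did not pass the unblocked test, ARPC5 and CORO1C, had log2 differences of 0.51 and 0.46 and passed with the block. The 4 Arp2/3 subunit genes among the members, which are not the whole complex, had changes from 0.51 to 1.35. ARPC1A had 516 and 547 CPM with p53 siRNA against 204 and 213 CPM with control siRNA, a change of 1.35 ± 0.14 (edgeR adjusted p = 0.00138). Its paralog ARPC1B, which takes the same place in the complex, had 164 and 184 CPM with p53 siRNA against 89.9 and 113 CPM with control siRNA, a change of 0.78 ± 0.18 (edgeR adjusted p = 0.0288). ARPC2, part of the core of the complex, had 527 and 492 CPM with p53 siRNA against 326 and 336 CPM with control siRNA, a change of 0.62 ± 0.15 (edgeR adjusted p = 0.0336). Both cofilins rose as well. CFL2, known as the muscle form, had 586 and 464 CPM with p53 siRNA against 282 and 217 CPM with control siRNA, a change of 1.07 ± 0.19 (edgeR adjusted p = 0.0109). CFL1, the widely expressed form, had 1531 and 1116 CPM with p53 siRNA against 803 and 724 CPM with control siRNA, a change of 0.79 ± 0.18 (edgeR adjusted p = 0.0288). Profilin (PFN1) had 1372 and 1206 CPM with p53 siRNA against 696 and 671 CPM with control siRNA, a change of 0.92 ± 0.18 (edgeR adjusted p = 0.0144). CAPG, a capper of filament ends, had 95.6 and 93.4 CPM with p53 siRNA against 57.8 and 62.7 CPM with control siRNA, a change of 0.65 ± 0.17 (edgeR adjusted p = 0.0471). PFN1 has processed pseudogenes in the table, which held 2.05% to 7.09% of its joint counts, so reads may have been split between them. With library totals, 3 of the 9 rose instead of 7. ARPC1A kept its call without each library in turn, that of CFL2 was lost without control siRNA replicate 2 (edgeR adjusted p = 0.129), and those of PFN1, ARPC1B, CFL1, ARPC2 and CAPG were each lost without either control library. ARPC1B was also lost without p53 siRNA replicate 2, CFL1 without p53 siRNA replicate 1, and ARPC2 and CAPG without either p53 siRNA library. The highest edgeR adjusted p without a library was 0.131 for PFN1, 0.186 for ARPC1B, 0.222 for CFL1, 0.201 for ARPC2 and 0.235 for CAPG.

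Of the 6 motor and tropomyosin genes, 2 rose. MYH9, the heavy chain of non-muscle myosin IIA, had 679.7 and 731 CPM with p53 siRNA against 428 and 431 CPM with control siRNA, a change of 0.71 ± 0.15 (edgeR adjusted p = 0.0204). TPM4, a tropomyosin of stress fibres, had 748 and 799 CPM with p53 siRNA against 395 and 425 CPM with control siRNA, a change of 0.91 ± 0.14 (edgeR adjusted p = 0.0059). The other tropomyosins did not pass the test, with log2 differences of -0.10 for TPM1 and -0.44 for TPM2, of which TPM2 passed with the block (edgeR adjusted p = 0.317 without and 0.0455 with it). MYLK, the kinase that activates myosin II through its light chain, had 76.2 and 56.6 CPM with p53 siRNA against 42.7 and 35.4 CPM with control siRNA. Its change of 0.77 ± 0.23 did not pass the unblocked test (edgeR adjusted p = 0.0700) and passed with the block (edgeR adjusted p = 0.00242). The light chain MYL9 was lower, at 39.0 and 44.4 CPM with p53 siRNA against 59.4 and 68.8 CPM with control siRNA, and its change of -0.62 passed with the block and not in the unblocked test (edgeR adjusted p = 0.334 without and 0.00597 with it). The call of TPM4 was lost without either control library (edgeR adjusted p of up to 0.0722), and that of MYH9 without either control library or p53 siRNA replicate 2 (up to 0.154).

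In the calponin family, whose members bind along actin filaments, none of the 4 genes passed the test in NCI-H2087. At an unadjusted p under 0.05 there were 3, against 4553 of the 17978 genes tested. The block called 2, TAGLN and TAGLN2, against 25.4% of all genes tested. Their log2 changes were all positive, from 0.34 for CNN3 to 1.43 for TAGLN. TAGLN, also called SM22 and a smooth muscle gene, was scarce, at 3.72 and 6.21 CPM with p53 siRNA and at 2.17 and 1.55 CPM with control siRNA. Of the ERM proteins, which tie actin to the plasma membrane, moesin (MSN) rose. It had 767 and 994 CPM with p53 siRNA against 422 and 476 CPM with control siRNA, a change of 0.97 ± 0.21 (edgeR adjusted p = 0.0216). Ezrin (EZR) and radixin (RDX) did not pass, at log2 differences of 0.33 for EZR and 0.06 for RDX. The call of MSN was lost without either control library or p53 siRNA replicate 2 (edgeR adjusted p of up to 0.150).

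**Figure D2:**
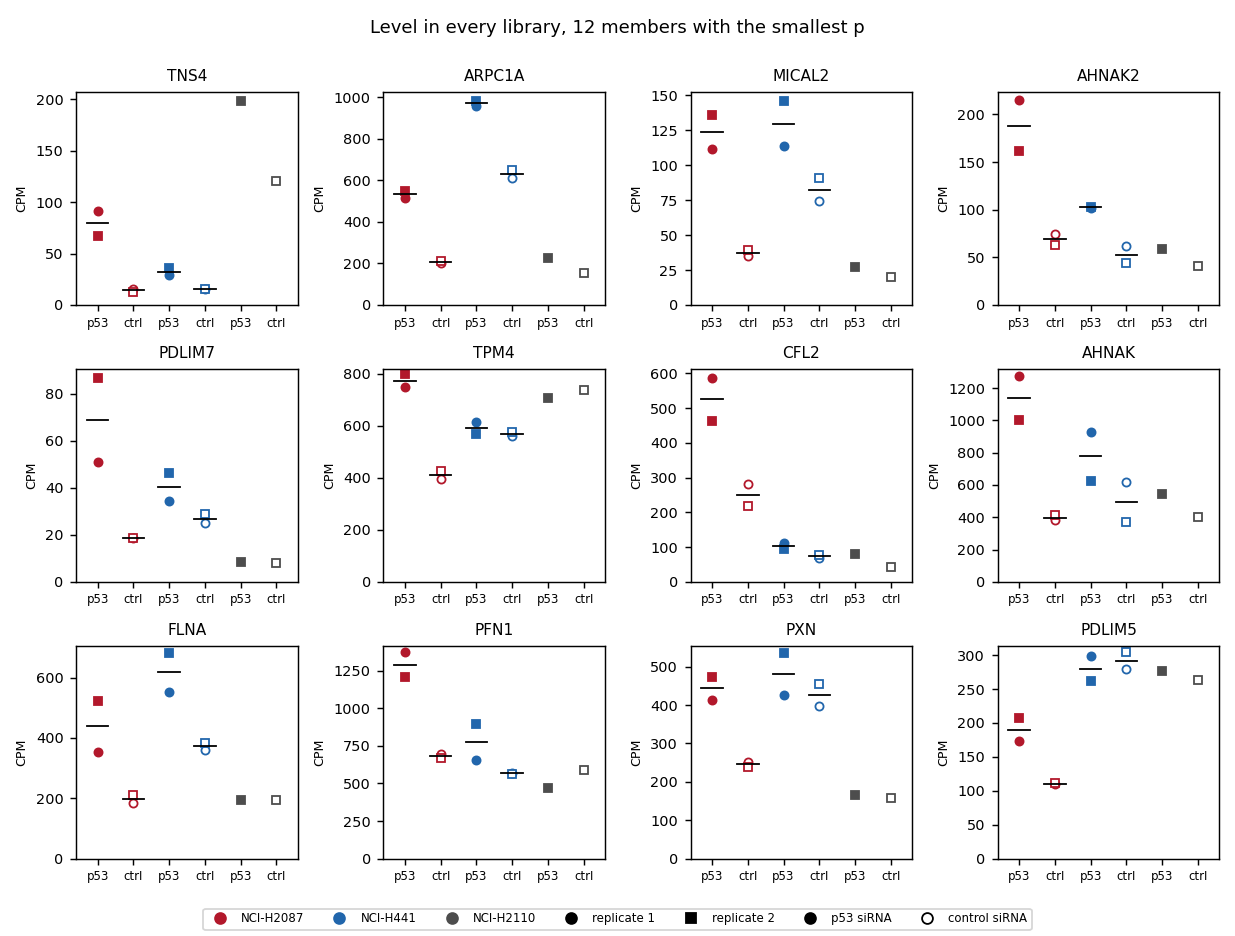
Level (CPM, linear axis from 0) in every library of the 12 genes with the smallest p over the p53 siRNA comparisons, with p53 siRNA (filled) left of control siRNA (open) in each line, circles for replicate 1, squares for replicate 2 and bars for the mean of 2 libraries. In NCI-H2087 both p53 siRNA libraries lie above both control libraries for all 12 genes. The 12 were picked by their p in these libraries, so separate arms are no further support. In NCI-H441 the arms overlap for some of them, as for TPM4 at 613 and 569.6 CPM with p53 siRNA and 560.4 and 576 CPM with control siRNA.

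The promoters were searched for 3 short motifs, since members rose together. RefSeq windows of 300 bases (250 before to 50 after a start, GRCh38.p14) were at hand for 37 of the 42 genes, in 66 windows. TNS4, MYL9, TAGLN, ARPC1B and CCN1 had no window. The CArG box, searched on both strands, was found in 5 of the 66 windows (7.58%), those of FLNA, ACTN1, MYLK, TPM4 and CNN2, against 1.29% of all 35116 windows in the table. The TEAD motif GGAATG was found on either strand in 14 windows (21.2%, against 14.0% of all windows), and the AP-1 motif TGANTCA in 7 (10.6%, against 7.71%). No CArG match shared bases with a TEAD or AP-1 match. The 250 bases upstream of 2 genes that rose in NCI-H2087 are given with the CArG box in capitals. It lies at positions -94 to -85 from the start in FLNA and at -173 to -164 from the most upstream start in TPM4. The stretches are given by their place in GRCh38.p14. They lie at chrX:154374635-154374884 (minus strand) and chr19:16067288-16067537 (plus strand).
FLNA: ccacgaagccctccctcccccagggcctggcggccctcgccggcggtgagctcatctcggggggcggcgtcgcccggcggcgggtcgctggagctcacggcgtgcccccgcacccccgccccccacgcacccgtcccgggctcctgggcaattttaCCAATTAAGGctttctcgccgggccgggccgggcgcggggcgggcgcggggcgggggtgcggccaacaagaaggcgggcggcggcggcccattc
TPM4: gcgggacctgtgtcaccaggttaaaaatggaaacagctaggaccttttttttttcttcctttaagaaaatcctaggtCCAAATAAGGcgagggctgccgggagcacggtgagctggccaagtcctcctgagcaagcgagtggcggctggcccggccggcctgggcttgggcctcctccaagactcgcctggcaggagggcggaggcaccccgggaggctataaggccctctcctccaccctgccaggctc
A match describes these letters only, and genes with and without a CArG box rose. FLNA and TPM4 were called, ACTN1, MYLK and CNN2 were not, and MICAL2, AHNAK2 and ARPC1A rose with none in their windows. TPM4 and ACTN1 also had windows at other starts without a CArG box, and counts per gene do not tell which start was used.

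The YAP-responsive genes did not share a direction in NCI-H2087. None of the 4 passed the unblocked test, with a median log2 change of -0.07. At an unadjusted p under 0.05 there were 2, against 4553 of the 17978 genes tested. These 4 genes are described with their values in every library, though the rule for naming genes did not select them all, and that choice was made after their values were seen. ANKRD1, a nuclear ankyrin repeat protein and sensitive YAP target, had 89.5 and 214 CPM with p53 siRNA against 59.0 and 89.3 CPM with control siRNA. The arms met at about the same level, 89.5 CPM with p53 siRNA and 89.3 CPM with control siRNA, and the change of 1.03 ± 0.36 passed with the block and not in the unblocked test (edgeR adjusted p = 0.108 without and 0.000804 with it). AMOTL2, an angiomotin that is both a YAP target and an inhibitor of YAP, was lower, at 27.4 and 27.8 CPM with p53 siRNA against 43.9 and 46.4 CPM with control siRNA. Its change of -0.71 ± 0.31 likewise passed with the block and not in the unblocked test (edgeR adjusted p = 0.181 without and 0.00315 with it). The matricellular proteins CCN1 and CCN2 overlapped between the arms. CCN1 had 418 and 804 CPM with p53 siRNA and 353 and 654 CPM with control siRNA, and CCN2 had 14.8 and 27.3 CPM with p53 siRNA and 21.5 and 34.9 CPM with control siRNA.

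In NCI-H441 the levels of CCN1 and CCN2 differed more between the replicate numbers than between the siRNAs. CCN2 was at 152 CPM in p53 siRNA replicate 1 and 1.72 CPM in p53 siRNA replicate 2, against 141 CPM in control siRNA replicate 1 and 2.37 CPM in control siRNA replicate 2. On the log2 scale replicate 1 exceeded replicate 2 by 6.40 in the p53 siRNA arm and by 5.85 in the control arm, and by size these differences ranked 3 and 2 among the 17978 genes. CCN1 was at 1289.8 and 445 CPM with p53 siRNA and 1072 and 335 CPM with control siRNA, and AMOTL2 was at 182 and 89.6 CPM with p53 siRNA and 113 and 77.1 CPM with control siRNA, again higher in replicate 1 of each arm. In NCI-H2087 the order was opposite for CCN1, CCN2 and ANKRD1, which were higher in replicate 2 of both arms. The standard error of the CCN2 change was 1.59 in NCI-H2087, where the block made it 0.16, and 1.55 in NCI-H441, where it became 0.18. With the block, the CCN2 difference was -0.44 in NCI-H2087 (edgeR adjusted p = 0.0539) and -0.06 in NCI-H441 (edgeR adjusted p = 0.945), and neither passed. The CCN1 difference with the block was 0.27 in NCI-H2087 (edgeR adjusted p = 0.134) and 0.34 in NCI-H441 (edgeR adjusted p = 0.273), and neither passed. Within each replicate number of both lines CCN1 was higher with p53 siRNA, while its log2 ratio in NCI-H2110 was -0.23. What distinguished the replicates is not given in the labels. Among the 17 YAP-responsive genes listed beside the members, no difference between replicates of NCI-H441 ranked higher than 261, that of CCDC80 with p53 siRNA at -1.88 on the log2 scale.

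**Figure D3:**
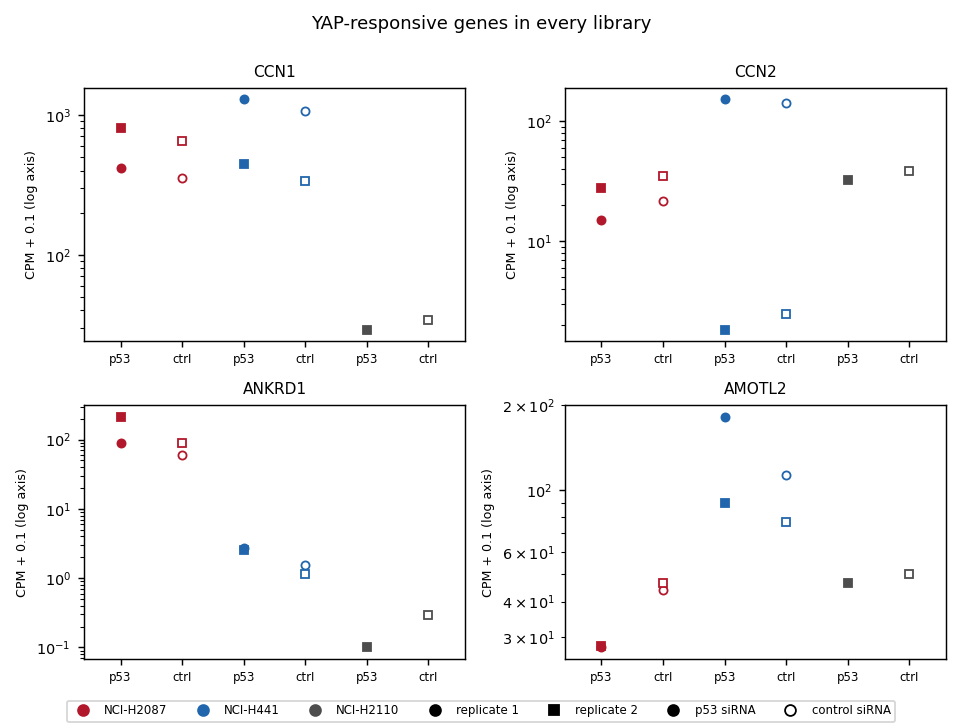
Level of CCN1, CCN2, ANKRD1 and AMOTL2 in every library (CPM plus 0.1, log axis), with p53 siRNA (filled) left of control siRNA (open) in each line, circles for replicate 1 and squares for replicate 2. For CCN2 in NCI-H441 the replicates lie apart, at 152 and 141 CPM in replicate 1 and 1.72 and 2.37 CPM in replicate 2, while the arms lie together.

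The upstream sequences of CCN2 and ANKRD1 are shown with their motifs, since among the 4 YAP-responsive members CCN2 differed most between replicates of NCI-H441 and ANKRD1 between the lines with control siRNA. The 250 bases before the CCN2 start held the TEAD motif 3 times, and those before the ANKRD1 start held it 2 times, together with 1 AP-1 motif. Capitals mark GGAATG in both genes and the AP-1 match in ANKRD1. The stretches lie at chr6:131951373-131951622 (minus strand) and chr10:90921088-90921337 (minus strand) of GRCh38.p14.
CCN2: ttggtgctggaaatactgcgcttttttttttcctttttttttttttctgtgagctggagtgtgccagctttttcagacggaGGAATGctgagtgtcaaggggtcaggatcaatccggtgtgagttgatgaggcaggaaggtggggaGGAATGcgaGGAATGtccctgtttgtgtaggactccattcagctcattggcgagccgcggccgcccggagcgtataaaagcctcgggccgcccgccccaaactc
ANKRD1: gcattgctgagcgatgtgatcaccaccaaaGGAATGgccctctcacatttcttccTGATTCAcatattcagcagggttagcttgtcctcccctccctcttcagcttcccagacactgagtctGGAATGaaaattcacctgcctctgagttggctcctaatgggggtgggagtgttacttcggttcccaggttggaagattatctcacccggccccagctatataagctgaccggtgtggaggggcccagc
The 3 motifs of CCN2 begin at positions -169, -104 and -95 from the start, and those of ANKRD1 at -220 and -128.

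In NCI-H441 no member of the group passed the test, against 0.00556% of all genes tested. At an unadjusted p under 0.05 there were 11, all higher, against 401 higher and 395 lower of the 17978 genes tested. DESeq2 called 3 members and limma-voom called 0, and their shares over all genes are not given here. The median log2 change was 0.28, against 0.01 for all genes tested, and 36 of the 42 changes were positive, against 9148 of 17978. With library totals 36 were positive as well, against 8001 of 17978. For 22 of the 42 genes both p53 siRNA libraries lay above both control libraries, against 17.0% of all genes tested. With the replicate block 7 genes rose, against 0.417% of all genes called: TNS4, AHNAK2, MYLK, FLNA, ARPC1A, MICAL2 and AHNAK.

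The 5 genes with the smallest p in NCI-H441 did not pass the unblocked test. TNS4 had 28.9 and 36.1 CPM with p53 siRNA and 15.3 and 15.6 CPM with control siRNA, a difference of 1.07 ± 0.21 (edgeR adjusted p = 0.614). AHNAK2 had 102 and 103 CPM with p53 siRNA and 61.5 and 43.8 CPM with control siRNA, a difference of 0.96 ± 0.21 (edgeR adjusted p = 0.835). ARPC1A had 957 and 984 CPM with p53 siRNA and 609 and 649 CPM with control siRNA, a difference of 0.63 ± 0.14 (edgeR adjusted p = 0.843). The arms did not overlap in any of these 3. MYLK had 15.0 and 17.3 CPM with p53 siRNA and 7.08 and 9.95 CPM with control siRNA, a difference of 0.92 ± 0.24 (edgeR adjusted p = 0.933). FLNA had 553 and 681 CPM with p53 siRNA and 361 and 383 CPM with control siRNA, a difference of 0.73 ± 0.21 (edgeR adjusted p = 0.933). MYLK and FLNA were likewise higher in both p53 siRNA libraries than in either control library. All 5 were picked by their p in these libraries, so separate arms are no further support. The remaining genes ran from -0.29 for TPM1 to 1.02 for ANKRD1, which was at 2.62 and 2.41 CPM with p53 siRNA and 1.46 and 1.04 CPM with control siRNA.

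The change in NCI-H2087 minus that in NCI-H441 was tested as an interaction, and no member passed, against 0.412% of all genes tested. At an unadjusted p under 0.05 there were 13 genes, 12 with the larger change in NCI-H2087 and AMOTL2 with the smaller. Over all 17978 genes tested, 1143 differences were positive and 1237 negative at that p. DESeq2 called 6 members and limma-voom called 0, and their shares over all genes are not given here. With the block 13 genes passed, against 8.92% of all genes tested. The 5 genes with the smallest p, none past the threshold without the block, were TNS4 with a difference in log2 change of 1.41 ± 0.29 (edgeR adjusted p = 0.0887, with the block 0.000847), TPM4 with 0.86 ± 0.20 (edgeR adjusted p = 0.12, with the block 0.00789), MICAL2 with 1.09 ± 0.28 (edgeR adjusted p = 0.14, with the block 0.00262), PDLIM5 with 0.85 ± 0.23 (edgeR adjusted p = 0.159, with the block 0.0144) and ARPC1A with 0.72 ± 0.20 (edgeR adjusted p = 0.173, with the block 0.0196). In NCI-H441 itself the log2 difference was 0.06 for TPM4 and -0.06 for PDLIM5. The difference was of the opposite sign for AMOTL2, at -1.23, and for MYL9, at -1.05, and both passed with the block (edgeR adjusted p = 0.00322 for AMOTL2 and 0.00806 for MYL9) and not in the unblocked test.

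For the change common to the 3 lines, 4 genes rose and 0 fell, against 0.395% of all genes tested in either direction. None was lower at an unadjusted p under 0.05, against 1177 of the 17978 genes tested, and neither DESeq2 nor limma-voom called a lower gene. AHNAK2 changed by 1.08 ± 0.16 (log2, SE; edgeR adjusted p = 0.0223), ARPC1A by 0.90 ± 0.15 (edgeR adjusted p = 0.0258), TNS4 by 1.55 ± 0.26 (edgeR adjusted p = 0.0287) and CFL2 by 0.80 ± 0.15 (edgeR adjusted p = 0.0421). In each of the 3 lines these 4 genes were higher with p53 siRNA than with control siRNA in every library. They were picked by their p in these same libraries, so this separation is no further support. Over all genes tested, every p53 siRNA library was above every control library for 25.4% in NCI-H2087 and 17.0% in NCI-H441. MICAL2, next in order of p, did not pass, at 1.05 ± 0.21 (edgeR adjusted p = 0.0550). The block also called 4, against 0.395% of all genes tested. The calls depended on single libraries, and 0 of the 4 held under every alternative run. That of AHNAK2 was lost without either control library or p53 siRNA replicate 1 of NCI-H2087. Those of TNS4 and ARPC1A were lost without each library of NCI-H2087 in turn and without control siRNA replicate 1 of NCI-H441. The call of CFL2 was lost in all these cases. It was also lost without p53 siRNA replicate 1 of NCI-H441, without either NCI-H2110 library and with library totals.

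NCI-H2110 had 1 library per arm, and its differences have no replicate check. Of the 42 genes, 39 had at least 50 counts in either library, and none of them differed by 2-fold, against 0.904% of all genes measured that were at least 2-fold higher and 0.589% that were at least 2-fold lower. MYLK, TAGLN and ANKRD1 fell below that minimum. The median log2 ratio of the 39 was 0.00, against -0.03 for all 12385 genes measured. The largest positive ratios were those of CFL2 at 0.89 (78.9 CPM with p53 siRNA, 42.5 CPM with control siRNA), TNS4 at 0.71 (198 and 121 CPM), ARPC1A at 0.57 (228 and 154 CPM), AHNAK2 at 0.54 (59.3 and 40.6 CPM) and MICAL2 at 0.45 (27.3 and 19.99 CPM). All 5 had risen in NCI-H2087. The largest negative ratios were those of TNS3 at -0.49 (31.8 CPM with p53 siRNA, 44.5 CPM with control siRNA), ZYX at -0.47 (95.3 and 132 CPM), CNN2 at -0.34 (190.1 and 241 CPM), MYL9 at -0.34 (25.7 and 32.7 CPM) and PFN1 at -0.34 (468 and 591 CPM). Of these, ZYX and PFN1 had risen in NCI-H2087.

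With control siRNA, the 2 replicated lines already differed in the group. Compared with NCI-H441, NCI-H2087 had 8 genes higher and 15 lower, against 22.0% of all genes tested higher and 20.1% lower, so that the share called was near that of all genes for the higher and above it for the lower. The median log2 difference of the group was -0.35, against 0.02 for all genes tested. ANKRD1 differed most, at 59.0 and 89.3 CPM in NCI-H2087 against 1.46 and 1.04 CPM in NCI-H441, a log2 difference of 5.90 ± 0.47 (edgeR adjusted p = 1.32e-05). MYLK was at 42.7 and 35.4 CPM in NCI-H2087 against 7.08 and 9.95 CPM in NCI-H441, a difference of 2.19 ± 0.24 (edgeR adjusted p = 9.48e-05). The cofilins differed in opposite directions, CFL2 by 1.76 ± 0.20 (282 and 217 CPM in NCI-H2087, 69.7 and 77.9 CPM in NCI-H441; edgeR adjusted p = 0.000105) and CFL1 by -0.72 ± 0.18 (803 and 724 CPM in NCI-H2087, 1276 and 1240.0 CPM in NCI-H441; edgeR adjusted p = 0.011). LIMA1, TPM1, CAPG, ACTN4 and VCL were also higher in NCI-H2087, by 0.56 to 1.44.

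The genes lower in NCI-H2087 included ARPC1B, at 89.9 and 113 CPM there and 459 and 361 CPM in NCI-H441 (-2.02 ± 0.19, edgeR adjusted p = 3.12e-05), and its paralog ARPC1A, at 204 and 213 CPM there and 609 and 649 CPM in NCI-H441 (-1.59 ± 0.14, edgeR adjusted p = 2.75e-05). TPM2 was at 18.8 and 25.1 CPM in NCI-H2087 and 86.6 and 79.8 CPM in NCI-H441 (-1.92 ± 0.26, edgeR adjusted p = 0.000297). All 3 ERM genes were lower, EZR by 1.48, MSN by 1.48 and RDX by 0.60 on the log2 scale. This comparison shares the control libraries with the knockdown comparisons of both lines. Leaving out NCI-H441 control siRNA replicate 1 left 4 higher and 11 lower. The calls of 13 of the 23 genes held under every alternative run.

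**Figure D4:**
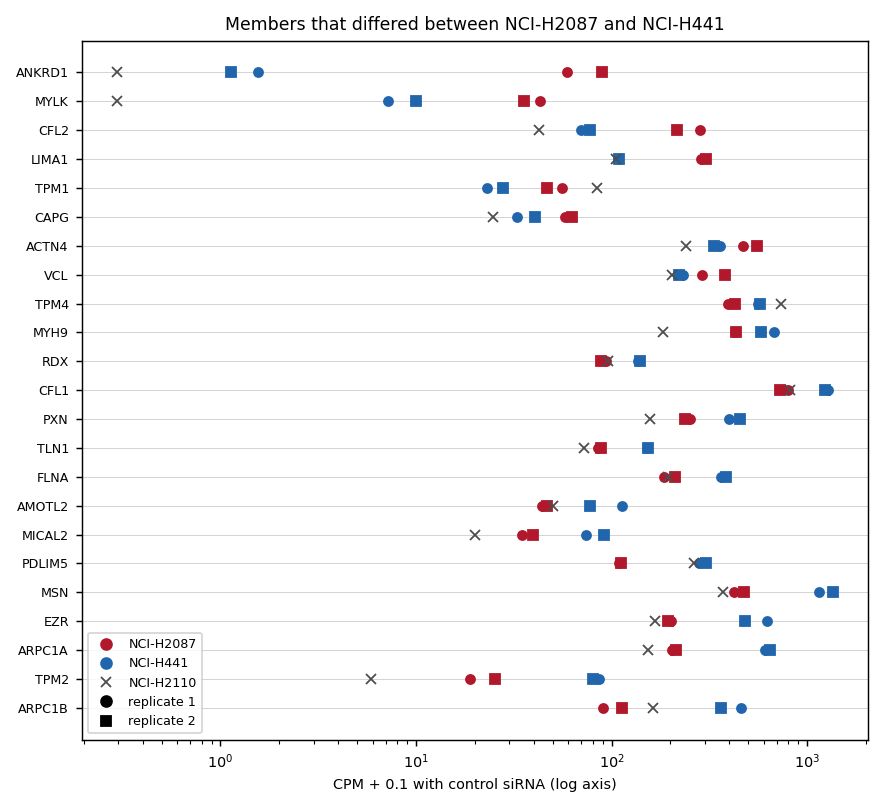
Level with control siRNA (CPM plus 0.1, log axis) of the 23 genes that differed between NCI-H2087 and NCI-H441, as circles for replicate 1 and squares for replicate 2, with the control library of NCI-H2110 as a cross. The genes are ordered by their log2 difference, from ANKRD1 at 5.90 at the top to ARPC1B at -2.02 at the bottom. The libraries of the 2 replicated lines are separate in each, and the genes were picked by this difference.

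The wider pathway was followed in 4 lists of other genes, which were chosen with earlier results of these data known. Among 20 YAP pathway components, 3 rose in NCI-H2087 and 0 fell, against 4.98% and 3.69% of all genes tested (the block called 6 higher and 1 lower, against 25.4% of all genes in either direction), with a median log2 change of 0.10 that turned to -0.08 with library totals. The 3 were WWTR1, which encodes TAZ, YAP1, and NF2, an upstream inhibitor of YAP. WWTR1 had 478 and 442 CPM with p53 siRNA against 194 and 176 CPM with control siRNA (1.31 ± 0.17, edgeR adjusted p = 0.00278). YAP1 had 341 and 333 CPM with p53 siRNA against 172 and 165 CPM with control siRNA (1.00 ± 0.14, edgeR adjusted p = 0.00352). NF2 had 170.1 and 129 CPM with p53 siRNA against 69.2 and 65.8 CPM with control siRNA (1.15 ± 0.19, edgeR adjusted p = 0.00797). The arms were separate in each of the 3, against 25.4% of all genes tested with every p53 siRNA library above every control library. The 3 were picked by their call in the same libraries, so this is no further support. In NCI-H441 YAP1 was at 305 and 292 CPM with p53 siRNA and 232 and 227 CPM with control siRNA and did not pass (edgeR adjusted p = 0.933).

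Of 17 further YAP-responsive genes, 3 rose and 1 fell in NCI-H2087, against 4.98% of all genes tested that rose and 3.69% that fell (the block called 4 higher and 4 lower, against 25.4% of all genes in either direction). The median log2 change was 0.04, and -0.13 with library totals. The receptor kinase AXL had 106 and 146 CPM with p53 siRNA against 24.4 and 27.0 CPM with control siRNA (2.29 ± 0.23, edgeR adjusted p = 0.00111). NT5E, the ectonucleotidase CD73, rose by 0.97 ± 0.19 (edgeR adjusted p = 0.0151) and the stress-inducible GADD45B by 1.37 ± 0.34 (edgeR adjusted p = 0.0385), while the ligand TGFB2 fell by 1.08 on the log2 scale (edgeR adjusted p = 0.0151).

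Among 25 further focal adhesion genes tested of 26 listed, 5 rose and 1 fell in NCI-H2087, against 4.98% of all genes tested that rose and 3.69% that fell (the block called 8 higher and 1 lower, against 25.4% of all genes in either direction). FERMT1, a kindlin that activates integrins, had 204 and 169 CPM with p53 siRNA against 61.3 and 54.6 CPM with control siRNA (1.69 ± 0.21, edgeR adjusted p = 0.00256). LPP, a relative of zyxin, had 203 and 284 CPM with p53 siRNA against 75.8 and 88.2 CPM with control siRNA (1.57 ± 0.25, edgeR adjusted p = 0.00659). VASP, which lengthens filaments, changed by 0.78 ± 0.16 (edgeR adjusted p = 0.0171). The scaffold NEDD9 went the other way, with 30.0 and 22.1 CPM with p53 siRNA against 79.4 and 98.3 CPM with control siRNA (-1.77 ± 0.26, edgeR adjusted p = 0.00436). In NCI-H441 NEDD9 was at 28.4 and 43.4 CPM with p53 siRNA and 24.2 and 31.1 CPM with control siRNA. It was the listed gene whose change differed between the lines (-2.14 ± 0.36, edgeR adjusted p = 0.0455).

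Of 47 further actin genes tested of 49 listed, 10 rose and 0 fell in NCI-H2087, against 4.98% of all genes tested that rose and 3.69% that fell (the block called 16 higher and 3 lower, against 25.4% of all genes in either direction). The median log2 change was 0.20, and 0.03 with library totals. EFHD2, a calcium-dependent actin bundler, had 120.2 and 115 CPM with p53 siRNA against 18.2 and 17.4 CPM with control siRNA (2.73 ± 0.19, edgeR adjusted p = 0.000375). The myosin light chain MYL12B changed by 1.15 ± 0.15 (edgeR adjusted p = 0.00278) and the LIM protein FHL2 by 1.47 ± 0.21 (edgeR adjusted p = 0.00384). In NCI-H441 none of the 4 lists had a gene past the unblocked test. Across the 3 lines together, EFHD2 (1.72 ± 0.28, edgeR adjusted p = 0.0258), MYL12B (0.83 ± 0.13, edgeR adjusted p = 0.0225), the focal adhesion kinase PTK2 (0.68 ± 0.11, edgeR adjusted p = 0.0258) and LPP (1.09 ± 0.20, edgeR adjusted p = 0.0396) rose, against 0.395% of all genes tested called in either direction. In NCI-H2110, 1 of the 15 further YAP-responsive genes measured, NT5E, and 1 of 24 further focal adhesion genes measured, LPP, were at least 2-fold higher, against 0.904% of all genes measured, and none of the genes measured from the 4 lists was 2-fold lower.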

How the data were processed

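Counts per gene were deposited by the authors as whole numbers without normalization, for 57736 Ensembl gene IDs in 10 libraries. Per the submitters' processing notes, Bowtie2, RSEM 1.2.12 and the hg19 build were used, with no role or order given, and whether the counts are rounded RSEM estimates is not given in the sources used here. Per the labels' protocols, the RNeasy Plus Mini kit gave the RNA and a Lexogen kit for mRNA the libraries; strand is not stated, so overlapping antisense transcripts cannot be told apart. Without the length of the transcripts counted, levels are compared between libraries and not between genes.

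Low counts were filtered with filterByExpr, given the 6 combinations of line and siRNA, which retained 99.96% of the counts. TMM factors scaled the libraries. In R 4.3.3, edgeR 4.0.16 fitted 1 mean per group to all 10 libraries (4 residual degrees of freedom), or line plus siRNA for the common change (6), with two-sided quasi-likelihood tests and Benjamini-Hochberg adjustment across the 17978 genes that remained. The common biological coefficient of variation was 19.8%. CPM use TMM library sizes, changes are on the log2 scale with p53 siRNA above control siRNA, and standard errors derive from the F statistic. NCI-H2110 was compared without a test, by the log2 ratio of its 2 CPM values (prior count 2) where a gene had at least 50 counts in either library. The unblocked test in NCI-H2087 was checked on simulated counts that held no replicate effect, and the other tests were not checked in this way. The simulated spread was the same for all genes and smaller than that estimated in the data, and only genes with high counts were changed. The check therefore cannot show how the test performs at the spread of these data.

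Whether the replicate numbers pair the libraries was checked: over 9332 genes, the difference between replicates 1 and 2 in the p53 siRNA arm correlated with that in the control arm, at r = 0.534 in NCI-H2087 and 0.595 in NCI-H441. Results of a blocked fit (2 residual degrees of freedom, 4 for the common change) are therefore also given, though not for every gene whose call it changed. Between replicates the chi-square per gene was 21.3 to 63.6, so no library was a copy of another. Alternatives were library totals, DESeq2 size factors, other filters, DESeq2 1.42.0, limma-voom (limma 3.58.1), the line's libraries alone and leaving out each library.

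Levels in every library are given for members called in a tested comparison, at most 20 by smallest p over the knockdown comparisons; where fewer than 5 were called, the 5 with the smallest p are named; in NCI-H2110, the 5 largest ratios in each direction; and up to 4 called genes of each further list. Some results that these rules would name are not reported here. The members, the lists and the tests were chosen with earlier results of these data known.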

Additional observations from a re-analysis of the deposited data

How the results depend on the processing

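The number of members called in NCI-H2087, 19, moved to 31 with the replicate block and ran from 3 to 18 when each library of the line was left out. In NCI-H441 the count of 0 became 2 without a filter on low counts, 3 with DESeq2 and 7 with the block. For the difference between the lines, 0 became 8 without the filter, 6 with DESeq2 and 13 with the block. For the common change, 4 became 15 without the filter and 10 with DESeq2, and leaving out a library gave 0 to 5. Between the lines with control siRNA, 23 ran from 15 to 24 when a library was left out. All these counts are of genes with an adjusted p under 0.05, and the cause of the shifts was not tested. With the block, the share of all genes called was 25.4% in NCI-H2087, 0.417% in NCI-H441 and 8.92% for the difference. For the other alternatives that share is not given here, so their counts are not read as particular to the members. The count of 0 members past 2-fold in NCI-H2110 was 0 under each of its 4 alternatives. No change that was called turned its sign under any alternative run. The pairing could not be used as a block between lines. With 2 libraries per arm and 4 residual degrees of freedom, moderate changes lay near the threshold, and TNS1, TAGLN and the ANKRD1 of NCI-H441 were measured from few counts.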

Other observations

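Values outside the comparisons came from the replicate numbers of NCI-H441. On the log2 scale, replicate 1 over replicate 2 was 1.54 for CCN1 with p53 siRNA and 1.68 with control siRNA, ranks 543 and 313 by size among 17978 genes, and 1.02 and 0.55 for AMOTL2. In NCI-H2087 the same ratio was -0.94 and -0.89 for CCN1, -0.88 and -0.70 for CCN2, and -1.25 and -0.60 for ANKRD1, with p53 siRNA given before control siRNA. No reading is put on these values, since the labels say nothing about what differed between the replicates.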
